A study of Homo sapiens with 60 samples.

Results

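The genes described here are 10 genes of bile acid synthesis, bile acid transport and signalling through the farnesoid X receptor (FXR): CYP7A1, CYP8B1, CYP27A1, NR1H4, NR0B2, ABCB11, SLC10A1, SLC51A, SLC51B and FGF19. They were chosen by name and found by their gene IDs, so they are 10 of the 60675 genes of the count table. All libraries were made from HepG2, an established line of human hepatocellular carcinoma cells, treated for 24 h. The vehicle group received DMSO (0.1% per the labels, 2% per the series' design text), and the positive control received 10 µM wortmannin, an inhibitor of phosphoinositide kinases. The other groups received a water extract of 1 medicinal herb. The doses were 500 (high), 100 (medium) and 20 µg/mL (low) for Aucklandiae Radix, Zizyphi Semen, Schisandrae Fructus, Liriopis seu Ophiopogonis Tuber and Longan Arillus. Polygalae Radix was given at 450, 90 and 18 µg/mL. This made 20 groups of 3 libraries. Each extract is called below by the first word of its name. The sample codes put the vehicle and wortmannin in a code set each, Liriopis with Schisandrae in a further set, Longan with Zizyphi in another and Polygalae with Aucklandiae in the last. What a code set stands for is not given in the sources used here, so in every comparison with the vehicle the treatment and the code set cannot be told apart.

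The liver turns cholesterol into bile acids along a classic route opened by CYP7A1, its rate-limiting hydroxylase, and an alternative route opened by the mitochondrial sterol hydroxylase CYP27A1. CYP8B1 adds the hydroxyl group that leads to cholic acid and so sets the mix of bile acids made. NR1H4 encodes FXR, the nuclear receptor that bile acids activate. FXR raises NR0B2, which encodes the repressor SHP, and in the intestine raises FGF19, a hormone that travels to the liver, and both are known to lower CYP7A1. SLC10A1 takes bile acids up from the blood, ABCB11 pumps them into bile, and SLC51A with SLC51B form the 2 subunits of an exporter at the basolateral membrane that FXR induces.

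Library depth ran from 20209694 to 36410588 counts (median 25762969). The identity of the cells was checked on marker lists: all 8 hepatocyte markers were measured in every group and summed to between 35700 and 51600 CPM (counts scaled to a common library total). Of the markers listed for other cell types, leukocyte PTPRC and CD3E had no count in any library, while CD68 averaged 45.5 CPM. Of the ileal list SLC10A2 and SI had no count and FABP6 averaged 0.0088 CPM, while APOA4 averaged 2.37 and VIL1 319 CPM. Of the cholangiocyte list CFTR had no count and KRT7 averaged 0.0258 CPM, while KRT19 and SOX9 averaged 197 and 258 CPM. The 4 fibroblast and stellate markers summed to between 8.46 and 23 CPM, led by PDGFRB at 12.5 CPM, and the 3 endothelial markers to between 3.22 and 5.65 CPM, led by PECAM1 at 3.47 CPM. The part of these cells or genes in the results was not tested. The labels do not say whether the 3 replicates of a group came from separate cultures, so each p-value covers the spread among the libraries as deposited, part or all of which may be technical. CPM values below are scaled to the library and are not divided by gene length, so they are compared between groups and not between genes.

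Of the 10 genes, 7 held enough counts for a test and 3 were too low to measure. ABCB11, the bile salt export pump (chromosome 2, 168915498 to 169031324, minus strand, GRCh38, GENCODE 29), had 3 counts in all 60 libraries together and 0 in 58 of them. A count of 0 allows a level of up to between 0.0824 and 0.148 CPM, depending on the depth of the library, if 3 counts are taken as the limit. FGF19 (chromosome 11, 69698232 to 69704642, minus strand) had 64 counts in all, with a median of 1 and a maximum of 4 per library and 0 in 17 libraries. SLC10A1, the sodium-dependent uptake carrier (chromosome 14, 69775417 to 69797289, minus strand), had a median of 4 and a maximum of 11 counts, and 2 of 60 libraries reached 10. Its counts were 8, 7 and 10 with wortmannin beside 1, 5 and 3 in the vehicle, and 2, 1 and 0 with high-dose Schisandrae. The wortmannin libraries of SLC10A1 lay above all 3 vehicle libraries, at means of 0.345 and 0.14 CPM. These 3 genes did not pass the filter on low counts, so the main fit tested no difference between their groups. In a fit with no filter, the SLC10A1 difference from the vehicle passed neither with wortmannin nor with high-dose Schisandrae. The log2 fold changes were 1.31 (edgeR adjusted p = 0.21) and -1.56 (adjusted p = 0.5). The limits given above for a count of 0 cover counting error only.

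**Figure D1:**
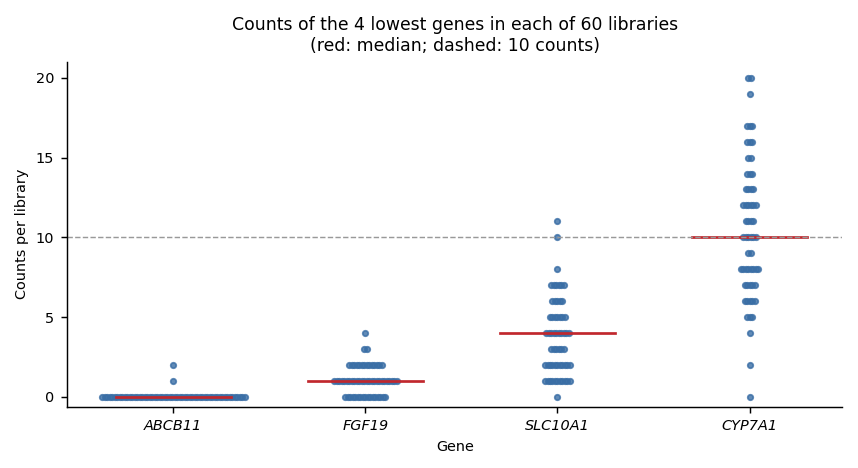
Counts per library (vertical axis) of the 4 lowest genes, 1 point for each of the 60 libraries, with the median in red and a dashed line at 10 counts. ABCB11, FGF19 and SLC10A1 have medians of 0, 1 and 4 counts, and CYP7A1 sits astride the line with a median of 10.

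The 7 tested genes were compared in 28 ways with edgeR's quasi-likelihood test, and a gene was called when its Benjamini-Hochberg adjusted p over all 16517 tested genes was under 0.05. Of the 196 pairs of gene and comparison, 34 were called. With wortmannin, 3 of the 7 genes rose, beside 16.4% of all tested genes, and 1 fell, beside 16.2%. With high-dose Schisandrae, 2 rose (8.4% of all tested genes) and 4 fell (7.25%). With high-dose Aucklandiae, 4 rose (13.6%) and none fell (12.5%). With high-dose Polygalae, none rose (10.2%) and 1 fell (9.94%). The median log2 fold change of the 7 genes was 0.35, -0.31, 0.15 and -0.06 in these 4 comparisons, beside 0.00814, -0.00552, 0.00033 and 0.00608 over all tested genes. These shares of genes called are large, so the counts alone say little about the 7 genes. Without vehicle replicate 1 the number called fell from 6 to 3 for Schisandrae and from 4 to 2 for Aucklandiae. All of the comparisons with the vehicle share its 3 libraries.

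At the middle and low doses the calls were few. Medium-dose Polygalae had 1 gene called (11.7% of all tested genes in either direction), low-dose Polygalae 1 (15.6%), and medium-dose Aucklandiae 2 (5.52%). edgeR called none of the 7 genes with low-dose Aucklandiae (4.45%), where 3 had an unadjusted p under 0.05 and DESeq2 called 0. With the medium and low doses of Schisandrae edgeR also called none (2.98% and 0.0727%). At these doses 2 and 0 genes had an unadjusted p under 0.05, and DESeq2 called 0 at both.

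Liriopis, Longan and Zizyphi gave no call against the vehicle in edgeR at any dose. For Liriopis the background was 0.0424% of all tested genes rising and 0.00605% falling at the high dose, and 0.0303% called at both lower doses. At each of these doses 1 of the 7 genes had an unadjusted p under 0.05 and DESeq2 called 0. For Longan the background was 0.92% rising and 0.842% falling at the high dose, and 0.0666% (medium) and 0.581% (low) called at the other doses. Unadjusted p-values under 0.05 were 0, 0 and 1 in number, and DESeq2 called 0 at each dose. For Zizyphi it was 2.55% rising and 1.86% falling, 0.702% and 2.09%, with 3, 0 and 1 genes at an unadjusted p under 0.05. Here DESeq2 called 1 gene, NR0B2, at the high dose and 0 at the others.

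**Figure D2:**
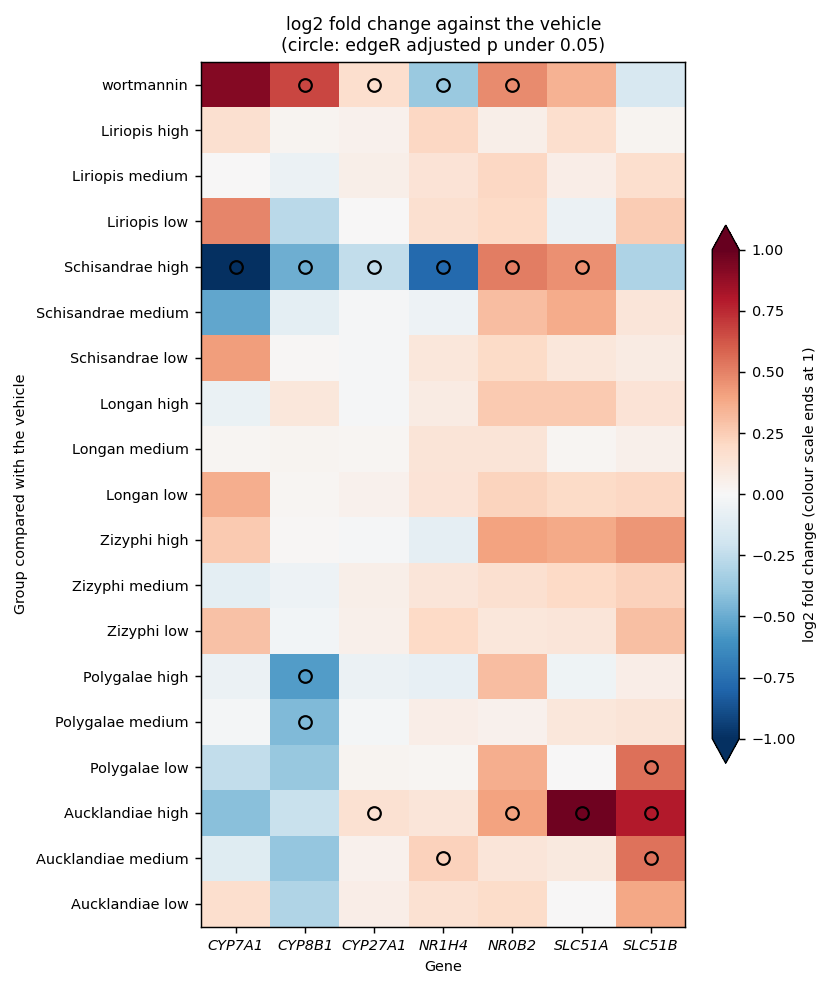
log2 fold change of each tested gene (columns) in the 19 treated groups against the vehicle (rows), with red for higher and blue for lower and circles where the adjusted p was under 0.05. Circles stand in the rows of wortmannin, high-dose Schisandrae, all doses of Polygalae and the high and medium doses of Aucklandiae, and in no row of Liriopis, Longan or Zizyphi.

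CYP7A1 (chromosome 8, 58490178 to 58500236, minus strand), the enzyme that opens the classic route, was at the edge of detection, with a median of 10 counts per library and 34 of 60 libraries at 10 or more. Its level was 0.479, 0.282 and 0.384 CPM in the vehicle and 0, 0.154 and 0.0934 CPM with high-dose Schisandrae, which are 12, 6 and 8 counts against 0, 4 and 2. The Schisandrae libraries all lay below the vehicle libraries and were the lowest group of the 20. The log2 fold change was -2.11 ± 0.64 (SE, n = 3 per group, edgeR adjusted p = 0.0061). Without the Schisandrae library that had 0 counts (replicate 1) it was -1.57 with an adjusted p of 0.061, so the call rests on that library. In bulk RNA of this kind, fewer cells that express a gene and less RNA of it per cell cannot be told apart.

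Within the code set the same gene was lower at the high than at the low dose of Schisandrae, where the 3 libraries held 0.436, 0.764 and 0.334 CPM (log2 fold change -2.53 ± 0.62, edgeR adjusted p = 0.00058). It was also lower than at the high dose of Liriopis, with 0.328, 0.496 and 0.465 CPM (-2.27 ± 0.63, adjusted p = 0.003). Both calls stood when any 1 of their 6 libraries was left out, with values of -3.37 to -1.99 and -3.11 to -1.74, the extremes being those without high-dose Schisandrae replicate 2 and replicate 1, while a fit of the 6 libraries alone ended the call against Liriopis. The medium dose of Schisandrae, at 0.268, 0.223 and 0.323 CPM, overlapped the vehicle libraries (-0.52 ± 0.45, adjusted p = 0.61). At the other end of the order stood wortmannin, at 0.726, 0.724 and 0.745 CPM. Its libraries lay above all vehicle libraries and above those of the next group in the order. The highest single library of the series, at 0.764 CPM, was replicate 2 of low-dose Schisandrae. The difference of wortmannin from the vehicle did not pass the test (log2 fold change 0.92 ± 0.39, adjusted p = 0.063). It passed when the 6 libraries were fitted alone. Of the 19 pairs of neighbours in the order of CYP7A1 levels, 17 overlapped in their libraries.

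CYP8B1 (chromosome 3, 42856005 to 42876165, minus strand), the enzyme of the cholic acid branch, was highest with wortmannin, at 7.21, 6.22 and 7.79 CPM. The vehicle libraries held 4.95, 4.14 and 4.22 CPM, all below the wortmannin libraries (log2 fold change 0.67 ± 0.13, edgeR adjusted p = 5e-05). The wortmannin group was the only one that stood apart from its neighbour in the order of the 20 groups, and the other 18 pairs of neighbours overlapped. The lowest groups were high-dose Polygalae (2.65, 3.77 and 2.62 CPM), high-dose Schisandrae (3.73, 2.97 and 2.85 CPM) and medium-dose Polygalae (3.76, 3.12 and 2.99 CPM). All 9 of these libraries were below the lowest vehicle library. Over the 20 groups, replicate 1 was the highest of the 3 libraries in 13 and replicate 3 the lowest in 10.

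For high-dose Polygalae the log2 fold change of CYP8B1 was -0.56 ± 0.14 (edgeR adjusted p = 0.0026), and the call stood without any 1 of the 6 libraries. For medium-dose Polygalae it was -0.44 ± 0.14 (adjusted p = 0.029). At the low dose, with 4.02, 3.37 and 2.92 CPM, it was -0.38 ± 0.14 and missed the threshold (adjusted p = 0.052). The low-dose difference passed in edgeR with RLE scaling (adjusted p = 0.048), a filter of 1 CPM in 30 libraries (0.042) or the replicate number as a block (0.037). It also passed without low-dose replicate 1 (0.019), and in no other setting. High and low doses of Polygalae overlapped and did not differ by the test (-0.18, 95% interval -0.46 to 0.09, adjusted p = 0.61). High-dose Aucklandiae, of the same code set, lay above high-dose Polygalae by 0.34 ± 0.14 without being called (edgeR adjusted p = 0.09). That difference passed without high-dose Polygalae replicate 2 (0.54, adjusted p = 0.011). High-dose Schisandrae gave -0.49 ± 0.14 against the vehicle (adjusted p = 0.012), -0.50 against its low dose (adjusted p = 0.014) and -0.51 against high-dose Liriopis (adjusted p = 0.01). These calls, and that of medium-dose Polygalae, were sensitive to single libraries. Against the vehicle, the Schisandrae call ended without vehicle replicate 1 or high-dose Schisandrae replicate 2 or 3 (adjusted p 0.066 to 0.11). Against the low dose it ended without low-dose replicate 1 or high-dose replicate 2 or 3 (0.084 to 0.098), and against Liriopis without high-dose Schisandrae replicate 2 or 3 (0.067 to 0.07). The medium-dose Polygalae call ended without vehicle replicate 1 or medium-dose replicate 2 or 3 (0.12 to 0.18). The 3 doses of Aucklandiae had means of 3.84, 3.4 and 3.63 CPM from high to low and were not called against the vehicle. Their log2 fold changes were -0.22 ± 0.14, -0.39 ± 0.14 and -0.30 ± 0.14 (edgeR adjusted p = 0.26, 0.088 and 0.23). All medium-dose and low-dose libraries lay below the vehicle libraries. The medium-dose difference passed without medium-dose replicate 1 (-0.52, adjusted p = 0.03).

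CYP8B1 lies across ACKR2, KRBOX1, AC099329.2 and AC092042.3 on the other strand. The strand setting of the authors' counting is not given in the sources used here, so reads of overlapping genes may not be fully separated. KRBOX1 averaged 0 CPM, and AC099329.2 and AC092042.3 were not examined. ACKR2 averaged 2.08 CPM over all libraries. Its log2 fold change was -0.62 ± 0.20 with high-dose Schisandrae (edgeR adjusted p = 0.026), 0.31 ± 0.18 with wortmannin (adjusted p = 0.2) and -0.32 ± 0.19 with high-dose Polygalae (adjusted p = 0.25). The Schisandrae call ended without vehicle replicate 1 or high-dose Schisandrae replicate 1 or 3 (adjusted p 0.069 to 0.22). The part of ACKR2 in the CYP8B1 values was not tested.

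CYP27A1 (chromosome 2, 218781749 to 218815293, plus strand), which opens the alternative route, was abundant and moved little: the highest group mean was 1.34 times the lowest. High-dose Schisandrae held 121, 120 and 120 CPM, below every vehicle library (134, 151 and 144 CPM) and below the neighbouring group in the order. The log2 fold change was -0.25 ± 0.05 against the vehicle (edgeR adjusted p = 8.7e-05), -0.24 ± 0.05 against the low dose (adjusted p = 0.00026) and -0.29 ± 0.05 against high-dose Liriopis (adjusted p = 1e-05). All 3 calls stood without any 1 library. Wortmannin, at 160, 161 and 163 CPM, and high-dose Aucklandiae, at 156, 160 and 159 CPM, lay above all vehicle libraries. Their log2 fold changes were 0.17 ± 0.05 (adjusted p = 0.0029) and 0.15 ± 0.05 (adjusted p = 0.014). Both calls ended without vehicle replicate 1, the lowest of the 3 vehicle libraries (adjusted p = 0.054 and 0.16). Within the code set, high-dose Aucklandiae did not differ from its low dose by the test (0.07 ± 0.05, edgeR adjusted p = 0.33). It exceeded high-dose Polygalae (137, 138 and 138 CPM) by 0.21 ± 0.05 (adjusted p = 0.00098), a call that stood without any 1 library. The doses of this pair differ, at 500 and 450 µg/mL.

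NR1H4, the gene of FXR itself (chromosome 12, 100473708 to 100564413, plus strand), was lowest with high-dose Schisandrae, at 22, 22.4 and 24.4 CPM. The vehicle held 42.3, 36.2 and 39.5 CPM and wortmannin 29.1, 30.5 and 31.6 CPM. The 3 groups did not overlap, and both treated groups also stood apart from their neighbours in the order. The log2 fold change with Schisandrae was -0.78 ± 0.07 (edgeR adjusted p = 1.8e-12), that is, a level 0.582 times the vehicle's. With wortmannin it was -0.37 ± 0.07 (adjusted p = 1.9e-05). The Schisandrae difference was as large within the code set: -0.89 ± 0.07 against the low dose (40.5, 46.8 and 40.2 CPM, adjusted p = 2.7e-14) and -0.99 ± 0.07 against high-dose Liriopis (45.6, 46.3 and 44.5 CPM, adjusted p = 9e-16). All 4 calls stood without any 1 library. The medium dose of Schisandrae, at 39.4, 38.3 and 36 CPM, overlapped the vehicle (-0.05 ± 0.07, adjusted p = 0.75). NR1H4 overlaps AC010200.2 on the other strand, and the part of AC010200.2 in the NR1H4 values was not tested.

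Smaller differences of NR1H4 were less stable. High-dose Zizyphi (36.2, 39.7 and 34.8 CPM) lay below its low dose (44.6, 45.6 and 45.7 CPM), with a log2 fold change of -0.29 ± 0.07 (edgeR adjusted p = 0.02). This call ended without high-dose replicate 1 or 3 or any of the 3 low-dose libraries (adjusted p 0.061 to 0.27). Against the vehicle neither dose passed the test: -0.09 ± 0.07 for the high dose (adjusted p = 0.51) and 0.20 ± 0.07 for the low dose (adjusted p = 0.088). Medium-dose Aucklandiae had the highest mean, 46.1 CPM, and a log2 fold change of 0.23 ± 0.07 against the vehicle (adjusted p = 0.029). The call ended without vehicle replicate 2 or 3 or medium-dose replicate 2 or 3 (adjusted p 0.07 to 0.19). High-dose Aucklandiae exceeded high-dose Polygalae by 0.20 ± 0.07 (adjusted p = 0.03), which ended without Polygalae replicate 1 or 2 or Aucklandiae replicate 2 (0.08 to 0.23). High-dose Liriopis, at a mean of 45.5 CPM, did not pass (0.21 ± 0.07, adjusted p = 0.19).

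NR0B2, the gene of the repressor SHP (chromosome 1, 26911489 to 26913966, minus strand), had its lowest mean in the vehicle (34.6, 40.7 and 40.6 CPM). Wortmannin held 53.9, 52 and 54.9 CPM and high-dose Schisandrae 44.7, 60.6 and 59.6 CPM, all above the vehicle libraries. On the log2 scale the difference was 0.47 ± 0.14 with wortmannin (edgeR adjusted p = 0.0053) and 0.51 ± 0.14 with Schisandrae (adjusted p = 0.0058). In both groups NR1H4 was lower than in the vehicle, as given above. High-dose Aucklandiae, at 45.4, 56.6 and 51.2 CPM, gave 0.40 ± 0.14 (adjusted p = 0.022). High-dose Zizyphi gave the same estimate, 0.40 ± 0.14, but did not pass (adjusted p = 0.077). Within the code set, high-dose Aucklandiae did not pass against its low dose (0.22 ± 0.13, edgeR adjusted p = 0.31). Nor did it pass against high-dose Polygalae (0.09 ± 0.13, adjusted p = 0.74). With no filter on low counts the difference from the low dose passed (0.21, edgeR adjusted p = 0.045).

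The NR0B2 calls carried a wide spread between libraries. Replicate 1 was the lowest of the 3 libraries in 17 of the 20 groups, and replicate 3 the highest in 15. With the replicate number as a block, 4 more differences of NR0B2 from the vehicle passed: high-dose Zizyphi (0.40, edgeR adjusted p = 0.006), low-dose Polygalae (0.36, 0.004), high-dose Polygalae (0.31, 0.01) and medium-dose Schisandrae (0.31, 0.044). Within the code set, Schisandrae exceeded high-dose Liriopis (37.4, 38.8 and 44.2 CPM) by 0.46 ± 0.14 (edgeR adjusted p = 0.02). That call ended without Liriopis replicate 1 or 2 or Schisandrae replicate 2 or 3 (adjusted p 0.076 to 0.13). High and low dose of Schisandrae overlapped (0.32 ± 0.13, adjusted p = 0.14), and with the block this difference passed as well (edgeR adjusted p = 0.012). Against the vehicle, the Schisandrae call ended without vehicle replicate 1 (adjusted p = 0.053), and the Aucklandiae call ended without vehicle replicate 1 or Aucklandiae replicate 2 or 3 (0.051 to 0.13). The wortmannin call stood without any 1 library. NR0B2 overlaps NUDC on the other strand, which averaged 177 CPM. NUDC had log2 fold changes of -0.18 ± 0.05 with wortmannin (adjusted p = 0.0064), 0.02 ± 0.05 with Schisandrae (adjusted p = 0.83) and 0.03 ± 0.05 with Aucklandiae (adjusted p = 0.7). The wortmannin call of NUDC ended without wortmannin replicate 3 (adjusted p = 0.079). The part of NUDC in the NR0B2 values was not tested.

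**Figure D3:**
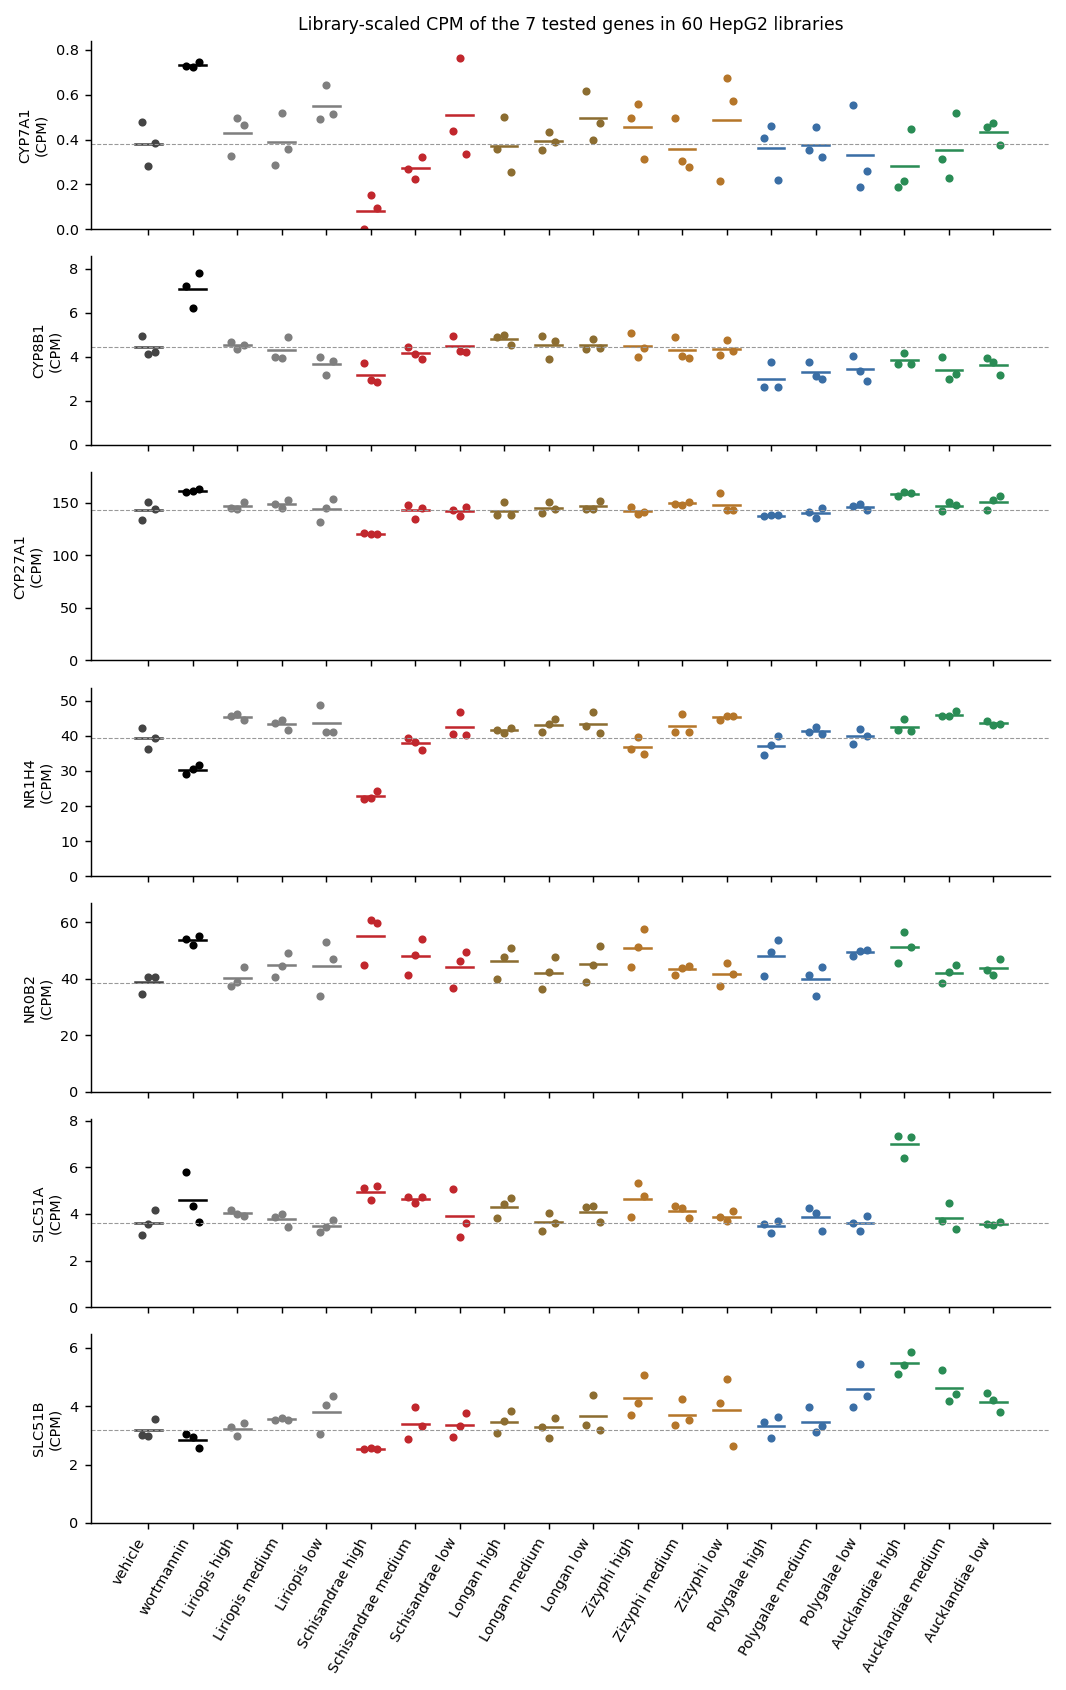
Library-scaled CPM (vertical axes, from 0) of the 7 tested genes in the 20 groups, with 1 point per library, a bar at the group mean and a dashed line at the vehicle mean. High-dose Schisandrae has the lowest mean for CYP7A1, CYP27A1, NR1H4 and SLC51B, wortmannin the highest for CYP7A1, CYP8B1 and CYP27A1, and high-dose Aucklandiae the highest for SLC51A and SLC51B.

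SLC51A (chromosome 3, 196211487 to 196243178, plus strand) and SLC51B (chromosome 15, 65045370 to 65053396, plus strand) encode the 2 subunits of the basolateral exporter, which works only as a pair, and both were highest with high-dose Aucklandiae. Over the 20 groups the Pearson correlation between the 2 genes' group-mean log2 CPM was 0.22. Both genes were called above the vehicle with high-dose Aucklandiae. The RefSeq sequences of the 250 bases before their start sites are therefore shown (GRCh38.p14, 5′ to 3′, plus strand). The SLC51A sequence is chr3:196216284-196216533 and the SLC51B sequence chr15:65045137-65045386. The SLC51A sequence lies inside the GENCODE 29 span of the gene given above and not at the start of that span. The SLC51A search below therefore covers only the RefSeq start site used here. The same limit holds for NR1H4 and CYP27A1. Their searched sequences, chr12:100503110-100503409 and chr2:218781897-218782196, also lie inside the GENCODE 29 spans of the genes.
SLC51A: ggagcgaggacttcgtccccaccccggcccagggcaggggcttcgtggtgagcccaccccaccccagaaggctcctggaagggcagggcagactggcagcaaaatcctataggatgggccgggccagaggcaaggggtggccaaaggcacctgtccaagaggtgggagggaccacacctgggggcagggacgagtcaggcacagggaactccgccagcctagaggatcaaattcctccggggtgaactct
SLC51B: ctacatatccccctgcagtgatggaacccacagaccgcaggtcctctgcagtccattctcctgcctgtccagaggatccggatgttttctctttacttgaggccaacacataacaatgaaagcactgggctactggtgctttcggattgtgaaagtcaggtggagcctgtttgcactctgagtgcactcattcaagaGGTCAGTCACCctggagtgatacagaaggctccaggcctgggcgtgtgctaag
Capitals in SLC51B mark GGTCAGTCACC, the stretch closest to the inverted repeat GGTCANTGACC that FXR is known to bind together with the retinoid X receptor. It starts 53 bases before the start site and differs from that motif at 1 position. A match with at most 1 mismatch, on either strand, was present in 0.681% of 35116 promoters of 300 bases, and an exact match in 0.011%. In SLC51A the closest stretch had 3 mismatches, which 62.0% of promoters matched or bettered. The same search gave 2 mismatches for ABCB11 and for SLC10A1, which 10.3% of promoters matched or bettered. It gave 3 for NR1H4 and 4 for CYP27A1. The mismatch search was chosen after the sequences were seen. The fixed motifs CAAGGTCA (NR5A2), CAAAGTCCA (HNF4A), GTAAACA (FOXO factors) and TGATGCAA (ATF4) had no exact match in the 6 promoters present in the table, those of CYP27A1, NR1H4, ABCB11, SLC10A1, SLC51A and SLC51B. They were present in 1.281%, 0.384%, 3.423% and 0.866% of all promoters. The shorter GGTCA, which the first of these and the inverted repeat contain, was present in 37.376% of all promoters and in those of NR1H4, SLC10A1 and SLC51B. These matches are descriptions of letters and not of bound sites.

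SLC51A stood at 7.34, 6.39 and 7.29 CPM with high-dose Aucklandiae and at 3.08, 3.58 and 4.17 CPM in the vehicle. The Aucklandiae libraries lay above all libraries of every other group. This is a log2 fold change of 0.97 ± 0.14 (edgeR adjusted p = 3.6e-07), or 1.95-fold. Against the low dose of the same extract (3.55, 3.54 and 3.66 CPM) it was 0.97 ± 0.14 (adjusted p = 3.5e-07), and against high-dose Polygalae (3.59, 3.2 and 3.72 CPM) it was 1.00 ± 0.14 (adjusted p = 1.3e-07). All 3 calls stood without any 1 library. The medium dose, at 3.68, 4.49 and 3.36 CPM, overlapped the vehicle. The difference between high and medium dose was not tested. PCYT1A, which overlaps SLC51A on the other strand and averaged 78.3 CPM, rose by 0.21 ± 0.05 with high-dose Aucklandiae (adjusted p = 0.0013), and by 0.17 ± 0.05 with high-dose Schisandrae (adjusted p = 0.018). The latter call ended without vehicle replicate 3 or Schisandrae replicate 1 or 2 (0.059 to 0.12). The part of PCYT1A in the SLC51A values was not tested.

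High-dose Schisandrae had the next highest SLC51A mean, with 5.11, 4.58 and 5.18 CPM, all above the vehicle libraries (log2 fold change 0.46 ± 0.14, edgeR adjusted p = 0.021). This call ended without vehicle replicate 1 or 2 or Schisandrae replicate 1 or 3 (adjusted p 0.056 to 0.17), and neither comparison within the code set passed: 0.35 ± 0.14 against the low dose (adjusted p = 0.12) and 0.30 ± 0.14 against high-dose Liriopis (adjusted p = 0.21). With wortmannin the libraries were spread over 5.81, 4.34 and 3.65 CPM and overlapped the vehicle (0.35 ± 0.15, adjusted p = 0.061). That difference passed without vehicle replicate 3 or wortmannin replicate 3.

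SLC51B was 5.12, 5.4 and 5.87 CPM with high-dose Aucklandiae, 5.24, 4.19 and 4.43 CPM with the medium dose and 4.46, 4.21 and 3.81 CPM with the low dose. The vehicle held 3, 2.97 and 3.55 CPM, below every Aucklandiae library. Against the vehicle the log2 fold change was 0.79 ± 0.16 at the high dose (edgeR adjusted p = 0.00015), 0.54 ± 0.16 at the medium dose (adjusted p = 0.036) and 0.39 ± 0.17 at the low dose (adjusted p = 0.17). High and low dose did not overlap, but the difference between them missed the threshold (0.39 ± 0.15, adjusted p = 0.075). Against high-dose Polygalae (3.46, 2.92 and 3.63 CPM) the high dose was higher by 0.71 ± 0.15 (adjusted p = 0.00053). The high-dose calls stood without any 1 library. The medium-dose call ended without vehicle replicate 1 or 2 or medium-dose replicate 1 or 3 (adjusted p 0.087 to 0.13).

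Elsewhere SLC51B was called once, with low-dose Polygalae at 3.99, 5.45 and 4.36 CPM (0.55 ± 0.16, edgeR adjusted p = 0.015), and that call ended without vehicle replicate 1 or 2 or low-dose replicate 2 (adjusted p 0.057 to 0.2). Low-dose Polygalae was higher than the high dose in every library, but the difference was not called (-0.47 ± 0.16 for high against low, adjusted p = 0.078). The lowest SLC51B mean was that of high-dose Schisandrae, with libraries at 2.53, 2.58 and 2.52 CPM, where SLC51A was above the vehicle. They lay below all vehicle libraries without passing the test (-0.31 ± 0.18, adjusted p = 0.26). RASL12, which overlaps SLC51B on the other strand, averaged 0.398 CPM and was not called with any of wortmannin or high-dose Schisandrae, Polygalae or Aucklandiae. AC013553.3 also overlaps SLC51B on that strand and was not examined.

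The comparisons that stay within a code set can be read together. High against low dose called 4 of the 7 genes for Schisandrae (9.99% of all tested genes in either direction), 1 for Aucklandiae (14.9%) and 1 for Zizyphi (0.351%). The high doses of Schisandrae and Liriopis differed in 5 of the 7 genes (10.9%; 3 without high-dose Schisandrae replicate 2 or 3), and those of Aucklandiae and Polygalae in 4 (16.6%). No gene of the 7 was called by edgeR between high and low dose of Liriopis (0%), Longan (0.00605%) or Polygalae (3.93%), or between the high doses of Zizyphi and Longan (0.0424%). In these 4 comparisons 1, 0, 1 and 1 genes had an unadjusted p under 0.05, and DESeq2 called 0 in each. For Zizyphi against Longan at 500 µg/mL the intervals still allow differences: CYP7A1 was 0.33 (95% interval -0.46 to 1.12), SLC51B 0.30 (-0.01 to 0.61) and NR1H4 -0.17 (-0.30 to -0.04) on the log2 scale, each with an edgeR adjusted p of 1.

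**Figure D4:**
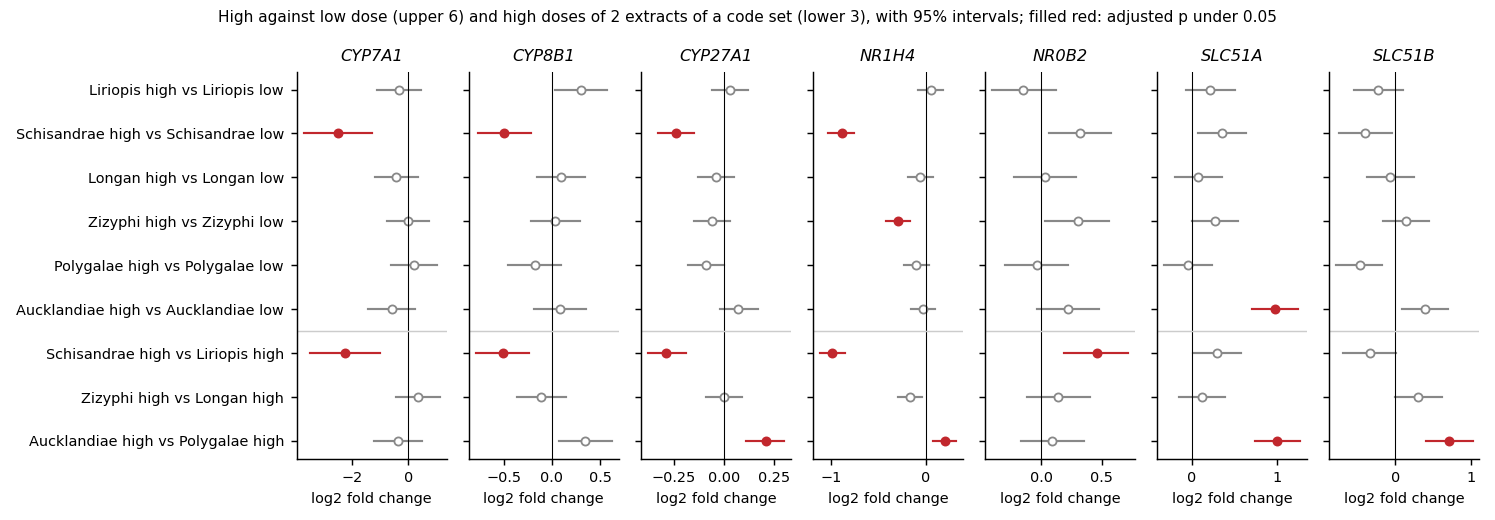
log2 fold change with its 95% interval (horizontal axes, which differ between panels) for high against low dose of each extract (upper 6 rows) and for the high doses of the 2 extracts that share a code set (lower 3 rows), with filled red points where the adjusted p was under 0.05. The red points lie in the Schisandrae rows and the Aucklandiae rows, with NR1H4 of Zizyphi besides.

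The other genes of the pathway were taken from a list of 42, of which 36 held enough counts to be tested. The list was chosen with earlier results of these data known, so its counts are given as description only. Untested were CYP7B1, CYP39A1, AKR1C4, SLCO1B1, SLCO1B3 and SLC10A2. With wortmannin 18 rose and 3 fell, beside 16.4% and 16.2% of all tested genes, and the median log2 fold change over the list was 0.25 beside 0.00814 over all tested genes. Of its 10 tested synthesis genes 8 rose and 1 fell. STAR, which carries cholesterol into mitochondria, rose by 0.81 ± 0.11 on the log2 scale from 4.18 to 7.3 CPM (edgeR adjusted p = 1.1e-07), and ACOX2, a peroxisomal oxidase of the side chain, rose by 0.62 ± 0.08. The bile acid sulfotransferase gene SULT2A1 rose by 0.77 ± 0.07 (adjusted p = 5.2e-12), from 92.6 to 158 CPM. VDR, a nuclear receptor that also senses a secondary bile acid, rose by 0.71 ± 0.23 and the coactivator gene PPARGC1A by 0.57 ± 0.08. UGT2B4, which encodes a glucuronosyltransferase, fell by 0.76 ± 0.21. The calls of VDR and UGT2B4 ended without vehicle replicate 1 (adjusted p = 0.11 and 0.064).

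With high-dose Aucklandiae 14 of the 36 rose and 7 fell, beside 13.6% and 12.5% of all tested genes (median log2 fold change 0.16 beside 0.00033). Of the 7 tested transporters 6 rose and 1 fell. ABCC3, an exporter of the basolateral membrane like SLC51A with SLC51B, stood at 147 ± 2.77 CPM beside 56.5 ± 1.82 CPM in the vehicle (SD, n = 3), higher by 1.38 ± 0.05 on the log2 scale (edgeR adjusted p = 3.2e-25). ABCC2, the canalicular exporter of conjugates, went from 266 ± 14.2 to 535 ± 10.3 CPM (1.01 ± 0.04, adjusted p = 3.7e-25). Among the falls were NR5A2 (-1.01 ± 0.36), the nuclear receptor known to activate CYP7A1 and CYP8B1, at 0.402 against 0.81 CPM, and VDR (-0.83 ± 0.26). KNG1 (-0.82 ± 0.16) and UGT2B4 (-0.79 ± 0.21), both known to respond to FXR, also fell. Single libraries decided 3 of these falls. NR5A2 was not called without vehicle replicate 1 or 2 or Aucklandiae replicate 1 or 2 (adjusted p 0.057 to 0.14), VDR without vehicle replicate 2 or Aucklandiae replicate 3 (0.11 and 0.084), and UGT2B4 without vehicle replicate 1 (0.067).

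With high-dose Schisandrae 6 of the 36 rose and 7 fell, beside 8.4% and 7.25% of all tested genes (median -0.10 beside -0.00552). The log2 fold change of KNG1, which encodes kininogen, was -1.23 ± 0.18 (edgeR adjusted p = 3.9e-07). STAR fell by 0.78 ± 0.13, and AKR1D1, the reductase of the sterol ring in bile acid synthesis, by 0.66 ± 0.08. VLDLR rose by 0.87 ± 0.18, ABCC2 by 0.76 ± 0.04 and BAAT, which joins bile acids to glycine or taurine, by 0.84 ± 0.13. With high-dose Polygalae 10 rose and 7 fell, beside 10.2% and 9.94% (median 0.05 beside 0.00608). VLDLR rose by 0.95 ± 0.17 and ABCC2 by 0.80 ± 0.04, while VDR fell by 0.83 ± 0.26, AKR1D1 by 0.82 ± 0.08, FETUB by 0.71 ± 0.22 and APOC2 by 0.70 ± 0.22. VDR was not called without vehicle replicate 2 (adjusted p = 0.12), FETUB without vehicle replicate 1 or 2 or Polygalae replicate 3 (0.053 to 0.13), and APOC2 without vehicle replicate 1 or Polygalae replicate 1 (0.078 and 0.11). With high-dose Longan 2 of the 36 rose (0.92% of all tested genes) and none fell (0.842%), and with high-dose Zizyphi 3 rose (2.55%) and none fell (1.86%). High-dose Liriopis had 0 of the 36 called by edgeR, with 5 at an unadjusted p under 0.05 and 2 called by DESeq2.

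**Figure D5:**
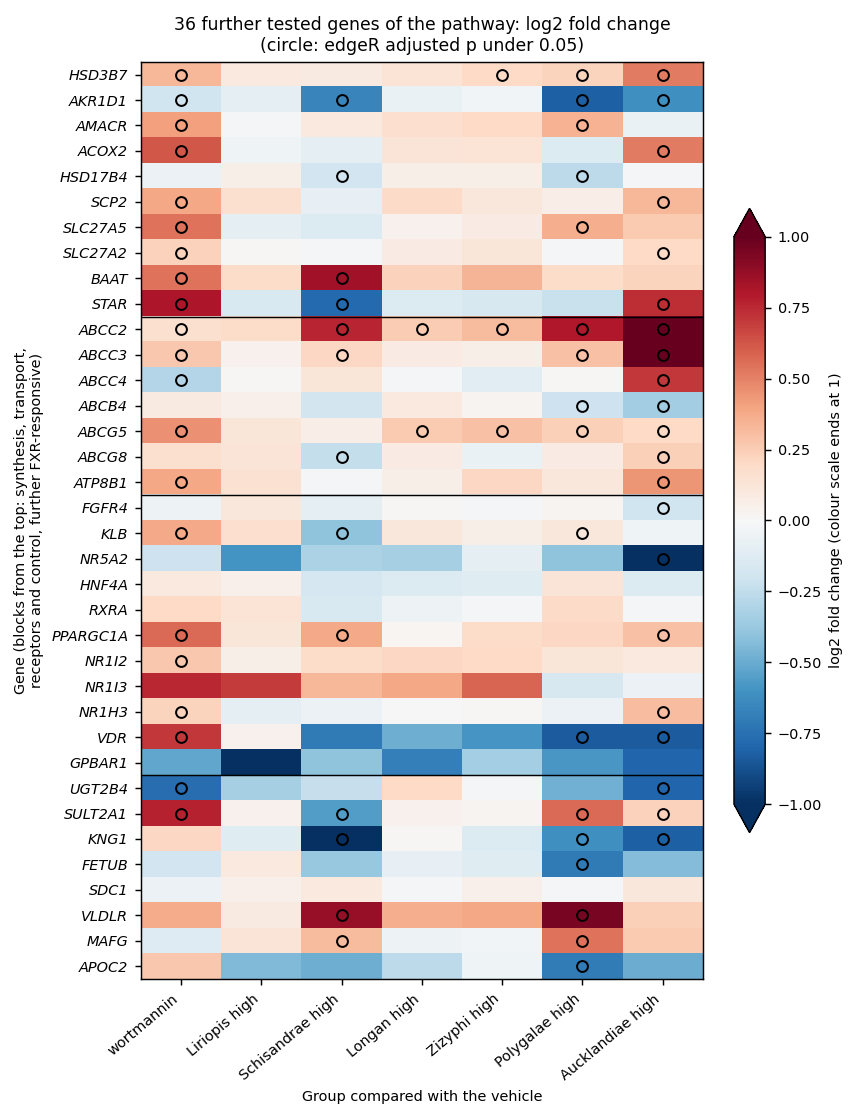
log2 fold change of the 36 further tested genes of the pathway (rows, in blocks for synthesis, transport, receptors and control, and further FXR-responsive genes) for wortmannin and the 6 high doses against the vehicle (columns), with circles where the adjusted p was under 0.05. Wortmannin has 8 of 10 synthesis genes up, high-dose Aucklandiae 6 of 7 transporters up, and high-dose Liriopis no circle.

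For each tested gene the genes whose levels followed it most closely over the 20 groups were found by the Pearson correlation of group-mean log2 CPM, among 10627 genes of at least 5 CPM. These values are descriptions over 20 group means that come from the same libraries and depths. C1orf115 (r = 0.937) and KLB (0.902) were most like CYP7A1. KLB encodes the co-receptor through which FGF19 acts on liver cells and is 1 of the 36 genes above. SERPINF2 (0.941), CLDN19 (0.933) and CYP2W1 (0.928) were most like CYP8B1. DHRS4 (0.919), HPR (0.917) and DHRS4L2 (0.911) were most like CYP27A1, and DHRS4 and DHRS4L2 are near-identical copies whose reads may be shared. MTARC1 (0.956), DGAT1 (0.913) and DNMT3B (0.894) followed NR1H4, and B3GAT3 (0.929), IGFBP1 (0.892) and CHPF (0.873) followed NR0B2. ST6GALNAC4 (0.879), SQOR (0.87) and CPNE2 (0.869) were most like SLC51A, and MTCH2 (0.888), EBPL (0.88) and ETFA (0.876) were most like SLC51B.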

How the data were processed

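RNA of HepG2 cells was sequenced as directional mRNA libraries with paired reads of 100 bp, per the labels' protocols. Per the submitters' processing notes the authors' tools were STAR 2.7.3a, RSEM 1.3.3, Trim Galore 0.6.5 and FastQC 0.11.9, with a build named hg38 or GRCh38. For the annotation release, filters and strand setting the sources used here give nothing. The values the authors deposited are expected counts per gene, of which 10.3% are not whole, and they were rounded. Symbols came from GENCODE 29 and promoters from RefSeq (GRCh38.p14), where 6 of the 10 genes matched.

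Groups follow the labels. edgeR 4.0.16 (R 4.3.3, limma 3.58.1) was fitted with quasi-likelihood to all 60 libraries with 1 term per group, TMM scaling (factors 0.92 to 1.08) and the default filter by group (filterByExpr, minimum count 10), which kept 16517 genes. Tests were 2-sided, with a Benjamini-Hochberg adjusted p under 0.05. SEs came from the fitted model, and 95% intervals are 1.96 SEs to each side. CPM used the same scaling. Of the other pathway genes, up to 6 per comparison are named: those called with the largest log2 fold change, at least 0.5. The 3 genes most like each tested gene were ranked by correlation (log2 CPM, prior count 2), and 1 of them is not reported here. The fit was tested on simulated data. Alternatives were scaling by RLE, no filter, a filter of 1 CPM in 30 libraries, a replicate block, DESeq2 1.42.0, the 6 libraries alone, each library left out, and 4 libraries of low GC slope left out. The genes and lists were chosen with earlier results of these data known.

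Whether replicate numbers pair the samples was checked by correlating deviations from group means: over all tested genes 0 of 28 comparisons had all 3 correlations over 0.1, and over 9247 genes above 10 CPM 3 did, among them high against low dose of Schisandrae (0.44, 0.18 and 0.38).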

Additional observations from a re-analysis of the deposited data

Results flagged for a closer look

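In the pairs of high doses that share a code set, 9 differences between extracts passed edgeR's test of the difference itself, so the effects of those 2 extracts against the same vehicle differ. Between Schisandrae and Liriopis the log2 differences were -2.27 for CYP7A1, -0.51 for CYP8B1, -0.29 for CYP27A1, -0.99 for NR1H4 and 0.46 for NR0B2. Between Aucklandiae and Polygalae, whose doses differ, they were 0.21 for CYP27A1, 0.20 for NR1H4, 1.00 for SLC51A and 0.71 for SLC51B. The calls of CYP8B1, NR0B2 and the NR1H4 difference of the second pair ended when single libraries were left out.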

How the results depend on the processing

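Of the 34 calls, RLE scaling and the replicate block ended 0, DESeq2 0 of the 32 it tested and the stricter filter 0 of the 31 it tested (CYP7A1 did not pass it). No filter ended 5, the fit of the 6 libraries alone 5, and leaving out the 4 libraries of low GC slope 7. These 4 were replicate 3 of Aucklandiae at its medium dose, replicates 2 of Schisandrae and 1 of Liriopis at their low doses, and replicate 1 of the vehicle. Leaving out single libraries ended 16 calls at least once. Of the 19 calls against the vehicle, 9 ended without vehicle replicate 1. In every setting that tested them 17 calls stood; the stricter filter did not test 1 of these, CYP7A1 between the Schisandrae doses.

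The number of the 7 genes called against the vehicle moved by over 1.5 times, or from or to 0, as follows. With no filter it was 1 for medium-dose Schisandrae, high-dose Longan and high-dose Zizyphi (0 in each as reported), 2 for high-dose and low-dose Polygalae (1), 0 for medium-dose Polygalae (1) and 1 for medium-dose Aucklandiae (2). With the replicate block, which pairs samples only by number in most comparisons, it was 1 for medium-dose Schisandrae and high-dose Zizyphi, 2 for high-dose and 3 for low-dose Polygalae; it also added the NR0B2 difference between Schisandrae doses and ended no call. DESeq2 gave 1 for high-dose Zizyphi and 2 for low-dose Polygalae, RLE scaling and the stricter filter 2 for low-dose Polygalae. The 6 libraries alone gave 2 for high-dose and low-dose Polygalae and 0 for medium-dose Polygalae and Aucklandiae. Without the 4 libraries it was 0 for medium-dose and low-dose Polygalae, 2 for high-dose and 1 for medium-dose Aucklandiae. Between high and low dose, no filter gave 2 for Zizyphi and Aucklandiae (1 in each), and the 6 libraries alone 0 for Zizyphi. Leaving out single libraries gave 3 to 6 for high-dose Schisandrae (6), 0 to 1 for medium-dose Polygalae, 0 to 2 for low-dose Polygalae, 2 to 4 for high-dose Aucklandiae (4), 0 to 2 for medium-dose Aucklandiae, 0 to 1 between Zizyphi doses and 3 to 5 between Schisandrae and Liriopis (5). Smaller moves were these. For wortmannin (4) it was 3 with no filter and 5 with the stricter filter or the 6 libraries alone. For high-dose Schisandrae (6) it was 4 without the 4 libraries and 5 with the stricter filter or DESeq2, and against Liriopis (5) 4 with these 2 settings or the 6 libraries alone; DESeq2 gave CYP7A1 no adjusted p in either. Between the Schisandrae doses (4) it was 5 with no filter or the block and 3 with the stricter filter. With no filter it was 3 for high-dose Aucklandiae against the vehicle or Polygalae (4 in each).

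The log2 fold change of NUDC, not called in either, turned from 0.02 to -0.02 with high-dose Schisandrae (-0.02 to 0.06 over single libraries left out) and from 0.03 to -0.01 with high-dose Aucklandiae (-0.01 to 0.06) without vehicle replicate 1 or the 4 libraries. That of RASL12 with Schisandrae, also not called, was -0.24 and ran from -0.39 to 0.01, turning without vehicle replicate 3. Counts over all genes moved by over 1.5 times in 16 of 28 comparisons with the 6 libraries alone, 11 with DESeq2, 14 with no filter, 17 without the 4 libraries, 3 with the stricter filter, 2 with the block and 1 with RLE scaling. The cause was not tested. Low counts kept ABCB11, FGF19 and SLC10A1 out of the main fit. CYP7A1, at most 0.764 CPM in any library, did not pass the stricter filter of 1 CPM in 30 libraries.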
